A study of Capra hircus with 18 samples.

Results

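The immediate early response genes FOS, JUN, KLF4, DUSP1 and ZFP36 were followed in the blood of goats after transport. They were chosen by name, and make up 5 of the 1557 different genes listed in the 2 tables analysed here. All 5 genes were listed in the table of 30 min transport against control (430 genes). FOS, KLF4 and DUSP1 were also listed in the table of 180 min transport against control (1247 genes). JUN and ZFP36 after 180 min of transport were not analysed here. All 5 genes had higher mean expression than control after 30 min of transport, from 1.37-fold for ZFP36 to 2.52-fold for FOS. Each fold given here comes from the difference of mean log2 counts, and is not the ratio of the mean counts. After 180 min, FOS, KLF4 and DUSP1 ranged from below every control goat to several times above the highest control goat.

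Immediate early genes are genes whose transcription begins within minutes of a stimulus, without new protein synthesis, and whose mRNAs are short-lived. They are induced mainly through MAP kinase and other signalling cascades that act on transcription factors already present in the cell. FOS and JUN encode the subunits of the AP-1 transcription factor. KLF4 encodes a zinc finger transcription factor that is active in monocytes. DUSP1 encodes a phosphatase that removes phosphate from p38, JNK and ERK kinases and so turns off MAP kinase signalling. ZFP36 encodes tristetraprolin, which binds AU-rich elements and promotes the decay of cytokine mRNAs. In leukocytes these genes respond to adhesion, cytokines and bacterial products, and DUSP1 and ZFP36 are also known targets of the glucocorticoid receptor.

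The goats were intact male Spanish goats of 8 months from which feed was withheld overnight before the experiment. Control goats (n = 7) stayed in holding pens, a group of 4 goats travelled 50 km in 30 min, and a group of 7 goats travelled 200 km in 180 min. Each goat gave 1 sequencing library, from whole blood collected in a tube that stabilises RNA, so that the replicates were separate animals. Transport took place on different days and the labels do not give the day of each goat. Day could therefore not be adjusted for, and its part in the differences between groups was not tested. No genotype, drug or deletion set the groups apart. In whole blood RNA, more or fewer cells of a type and more or less RNA per cell cannot be told apart.

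The effective library size ranged from 10443023 to 39473244 reads over the 18 goats, and every listed member had at least 23 reads in every goat. Read numbers were therefore not near 0 for any member. The tables list only genes that had passed an unadjusted threshold of 0.05 in the authors' own test, which was checked on all 430 and all 1247 genes. A test of a member on the same goats therefore repeats part of that choice. The permutation test used here called 46.7% of the genes in the 30 min table and 64.0% of those in the 180 min table at an unadjusted p below 0.05. Goat 10 of the 180 min group stood apart in that 26.2% of its library lay in the listed genes. This share was 7.93% to 14.3% in the other goats of that group and 4.22% to 9.25% in the control goats. Differences, spreads and direct comparisons of the members at 180 min are given with and without goat 10.

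FOS (ENSCHIG00000025384) lies on chromosome 10 at 16631746 to 16635227 on the minus strand in the coordinates of the deposited tables. JUN (ENSCHIG00000004093) lies on chromosome 3 at 33529573 to 33530580 on the minus strand, and its gene model has no intron, since its length of 1008 bases equals its span. KLF4 (ENSCHIG00000017196) lies on chromosome 8 at 96957878 to 96965725 on the minus strand. DUSP1 (ENSCHIG00000021879) lies on chromosome 20 at 4599677 to 4604826 on the minus strand. ZFP36 (ENSCHIG00000023209) lies on chromosome 18 at 49978835 to 49983276 on the plus strand. The genome build behind these coordinates is not given in the sources used here. In the RefSeq annotation of assembly ARS1.2, each of the 5 symbols matched 1 gene, and no other annotated gene overlapped it.

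In blood of the control goats, levels per length ranked in the order ZFP36, JUN, DUSP1, FOS and KLF4. The FPKM was 32.5 ± 4.63 for ZFP36, 13.2 ± 4.05 for JUN, 12.5 ± 4.31 for DUSP1, 6.47 ± 2.01 for FOS and 1.06 ± 0.39 for KLF4 (SD, n = 7). The range of ZFP36 lay above that of JUN and the range of KLF4 lay below that of FOS, whereas JUN and DUSP1 differed by less than their spread and the ranges of DUSP1 and FOS overlapped. After 30 min of transport the FPKM was 46.5 ± 11.3 for ZFP36, 27.5 ± 7.27 for DUSP1, 21.1 ± 5.53 for JUN, 18.4 ± 11.7 for FOS and 2.42 ± 0.96 for KLF4 (SD, n = 4). ZFP36 and KLF4 thus kept the ends of the order, while DUSP1, JUN and FOS differed from each other by less than their spread. After 180 min the FPKM was 29.7 ± 31.5 for DUSP1, 15.8 ± 14.4 for FOS and 2.95 ± 2.59 for KLF4 (SD, n = 7).

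The comparison of 30 min transport with control addressed the early transcript response of blood to a short journey. FOS showed the largest difference of the 5 genes with all goats included. Its normalized read count, which is the read count divided by the size factor of the library, was 584, 1417, 467 and 440 in transported goats 21, 22, 24 and 27. In the control goats it ranged from 167 to 389 with a median of 251. Every transported goat lay above every control goat, and goat 22 lay well above the other transported goats. FOS averaged 727 ± 464 (SD, n = 4) after transport and 264 ± 80.1 (SD, n = 7) in control, a log2 difference of 1.34 (limma standard error 0.38; exact two-sided permutation test, p = 0.00303, the smallest that 4 against 7 goats can give). Without goat 22 the log2 difference of FOS was 0.96 (exact permutation test, p = 0.0167), below those of DUSP1 (1.33) and KLF4 (0.99) without that goat.

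JUN, the partner of FOS in AP-1, differed less. Its normalized count was 535, 336, 372 and 311 in goats 21, 22, 24 and 27, and ranged from 129 to 368 with a median of 248 in control. Goats 21 and 24 lay above every control goat, and goats 22 and 27 lay within the control range. The mean was 389 ± 101 (SD, n = 4) after transport and 250 ± 74.9 (SD, n = 7) in control, a 1.58-fold difference with a log2 difference of 0.66 (limma standard error 0.31; exact two-sided permutation test, p = 0.0303). In the limma fit of the whole table, which called 46.0% of the 430 genes at an unadjusted p below 0.05, JUN was not called (unadjusted limma p = 0.0559, against 0.0303 in the exact permutation test). JUN also lost its call in the exact permutation test when goat 21 (0.50, p = 0.108), goat 24 (0.67, p = 0.0750) or control goat 1 (0.62, p = 0.0524) was left out.

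KLF4 had the lowest level of the 5 genes per length in the control and 30 min goats. Its normalized count was 382, 341, 136 and 241 in goats 21, 22, 24 and 27, and ranged from 76.2 to 188 with a median of 136 in control. Goats 21, 22 and 27 lay above every control goat, and goat 24 lay at the control median. The mean was 275 ± 110 (SD, n = 4) after transport and 124 ± 44.7 (SD, n = 7) in control, a 2.18-fold difference with a log2 difference of 1.12 (limma standard error 0.38; exact two-sided permutation test, p = 0.0212).

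DUSP1, the MAP kinase phosphatase, was higher by a similar factor. Its normalized count was 2561, 1305, 2270 and 2051 in goats 21, 22, 24 and 27, and ranged from 464 to 1306 with a median of 996 in control. Goats 21, 24 and 27 lay above every control goat, whereas goat 22, which had the highest FOS, lay level with the highest control goat. The mean was 2047 ± 537 (SD, n = 4) after transport and 958 ± 314 (SD, n = 7) in control, a 2.19-fold difference with a log2 difference of 1.13 (limma standard error 0.34; exact two-sided permutation test, p = 0.00909).

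ZFP36, the mRNA decay factor, had the highest level and the smallest difference. Its normalized count was 4068, 3129, 2615 and 2411 in goats 21, 22, 24 and 27, and ranged from 1899 to 2784 with a median of 2087 in control. Goats 21 and 22 lay above every control goat, and goats 24 and 27 lay within the control range. The mean was 3056 ± 739 (SD, n = 4) after transport and 2207 ± 312 (SD, n = 7) in control, a 1.37-fold difference with a log2 difference of 0.45 (limma standard error 0.23; exact two-sided permutation test, p = 0.0212). In the limma fit ZFP36 was not called (unadjusted limma p = 0.0803, against 0.0212 in the exact permutation test). ZFP36 also lost its call in the exact permutation test without goat 21 (0.30, p = 0.0750) and without goat 22 (0.43).

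**Figure D1:**
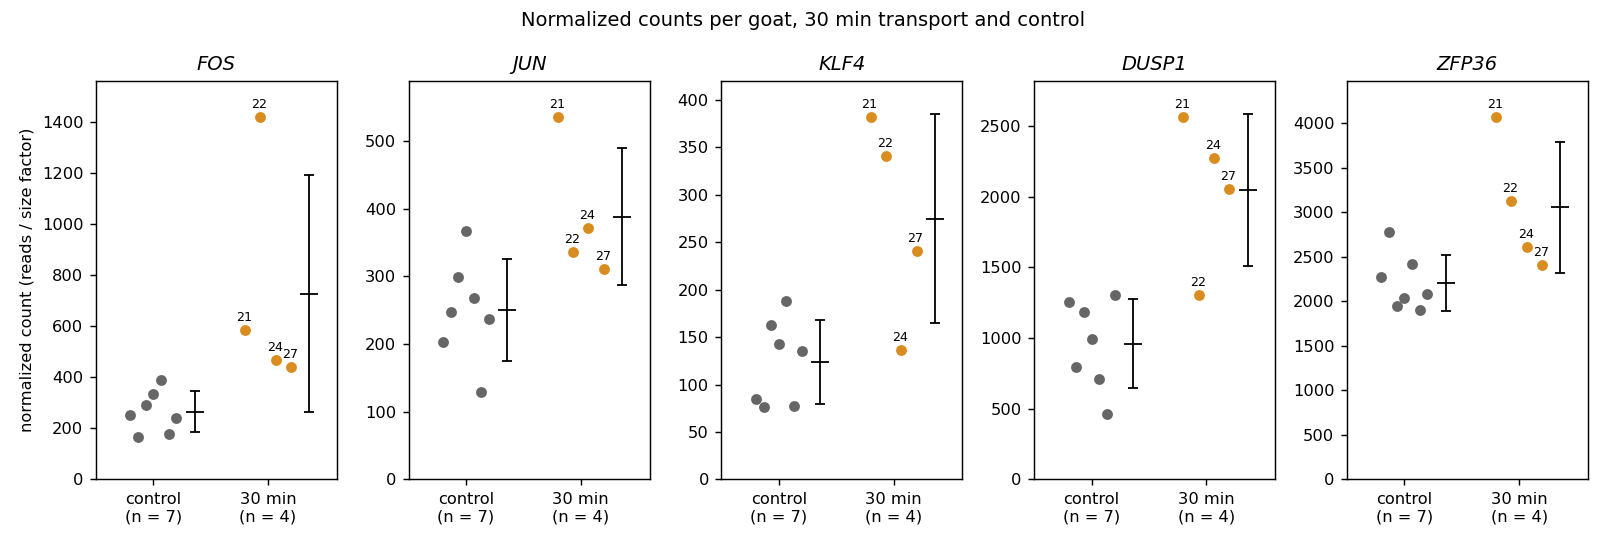
Normalized read counts (linear axes from 0, 1 panel per gene) of FOS, JUN, KLF4, DUSP1 and ZFP36 in each control goat (n = 7) and each goat transported for 30 min (n = 4), with 1 point per goat, goat numbers beside the transported goats, and the group mean and SD as a bar. FOS is the gene in which all 4 transported goats sit above the highest control goat, and the groups of the other 4 genes overlap.

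By the exact permutation test all 5 genes were thus higher after 30 min at an unadjusted p below 0.05, where 26.0% of the 430 listed genes were higher by that test and 20.7% lower. In all 5 genes each of the 4 transported goats was above the control median, for KLF4 only just in goat 24 (136.5 against 135.8). This was not particular to the 5 genes. In the 103 listed genes with a higher mean that are ranked by goat below, each transported goat was above the control mean in 97.1% to 100%. The groups did not overlap for 1 of the 5 genes, FOS, where they did not overlap in this direction for 6.51% of the listed genes. After Benjamini-Hochberg adjustment over the 430 genes the p-values of the 5 genes in the permutation test lay between 0.0668 and 0.0814, so none passed. Those 430 genes had been chosen by p-value on the same goats, so that values adjusted over them do not hold a false discovery rate. No listed gene passed that adjustment by the permutation test, while 201 had an unadjusted p below 0.05 and 9 (2.09%) passed the adjustment in limma, with no member among them.

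The listed genes at 30 min were mostly lower than control, with a mean above control in 29.5% of them. Centring each goat on its median listed gene, which shifted by -0.69 on the log2 scale between control and transported goats, gave log2 differences of 2.03 for FOS, 1.82 for DUSP1, 1.81 for KLF4, 1.35 for JUN and 1.14 for ZFP36. This centring adds the same amount to the difference of every gene.

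The goats did not rank alike over the 5 genes. Goat 21 had the highest JUN, KLF4, DUSP1 and ZFP36 of the 30 min group, and goat 22 had the highest FOS and the lowest DUSP1. Goat 21 was also the highest of all goats in 45.6% of the 103 listed genes with a higher mean after 30 min and an average normalized count of 50 or more, and goat 22 in 11.7%. Among the control goats, goat 8 had the lowest JUN, DUSP1 and ZFP36, and it was the lowest goat in 31.1% of the same 103 genes. In goat 22 the log2 ratio of FOS to DUSP1 was 0.12, and in the control goats it ranged from -2.43 to -0.87.

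The 13 ratios between members within a goat were compared between transported and control goats as a question raised after the values had been seen. FOS to ZFP36 gave the smallest unadjusted p, with a mean log2 ratio of -2.22 ± 0.73 (SD, n = 4) after 30 min and -3.10 ± 0.51 (SD, n = 7) in control (exact two-sided permutation test, p = 0.0242, and 0.309 adjusted over the 13 ratios). Without goat 22 that difference went from 0.88 to 0.53 in log2 units (p = 0.133 in the exact permutation test), and without goat 24 or 27 it was 0.97 or 0.96 (p = 0.0583 for each in the exact permutation test). FOS to JUN differed by 0.67 in log2 units (p = 0.0818 in the exact permutation test, adjusted 0.309), and by 0.23 without goat 22 (p = 0.375). None of the 13 ratios passed the adjustment, so that a difference in size of response between members was not resolved with these goats.

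**Figure D2:**
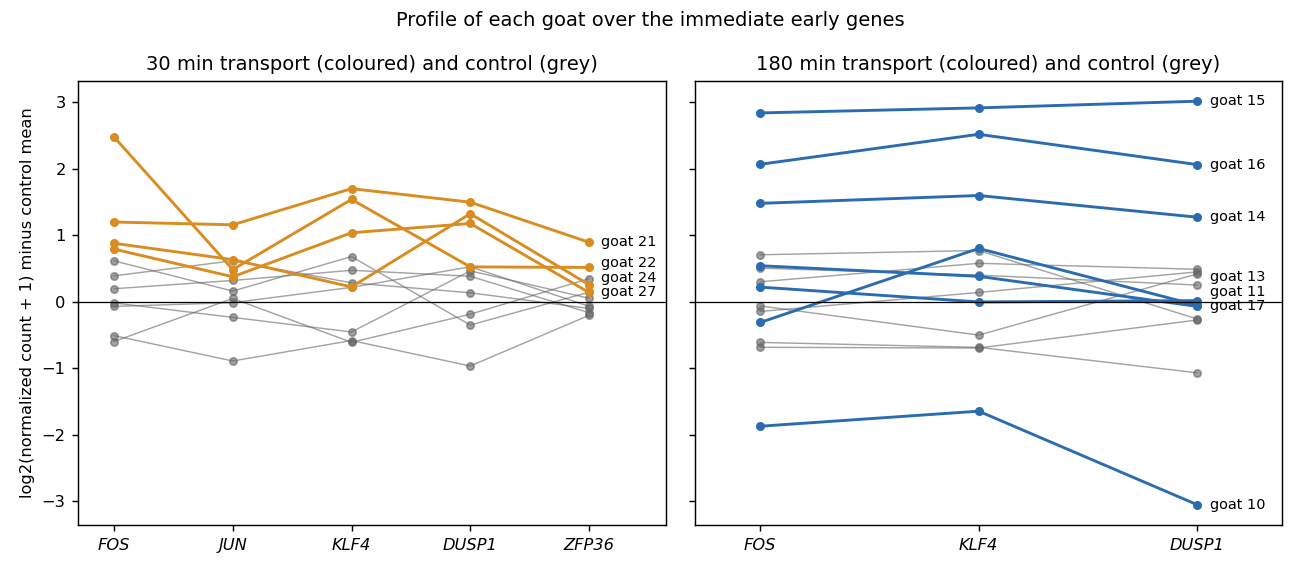
Log2 of the normalized count + 1 minus the control mean for each member (vertical axis), with 1 line per goat, transported goats coloured and control goats (n = 7) grey, for 30 min (n = 4) and 180 min (n = 7). At 30 min the coloured lines cross and all lie above 0, and at 180 min goats 15, 16 and 14 lie above every grey line and goat 10 below them all.

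Other immediate early genes were read from a list of 53 genes, of which 11 were in the 30 min table. Of these 11 genes, 10 had a higher mean after transport and 9 rose by the exact permutation test, with 1 gene lower, where 26.0% of all listed genes were higher by that test. Their median log2 difference was 1.26, against -0.92 over all listed genes. NFKBIA, the inhibitor that retains NF-kB in the cytoplasm, rose from 754 ± 151 (SD, n = 7) to 2445 ± 741 (SD, n = 4), 1.68 higher on a log2 scale (p = 0.00303 in the exact permutation test). GADD45A, a growth arrest gene, rose from 273 ± 68.2 to 731 ± 140 (1.43 higher, p = 0.00303 in the exact permutation test). Both had larger differences than FOS with smaller standard errors (0.28 and 0.26).

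SGK1, a kinase known to be induced by glucocorticoids, rose by 1.34 in log2 units (p = 0.00606 in the exact permutation test), and CD69, an early activation receptor of lymphocytes, rose by 1.26 (p = 0.00606). CXCL8, the neutrophil chemokine, had the largest fitted difference of the list (3.79, exact permutation test, p = 0.0242), with counts of 177 ± 111 (SD, n = 4) against 27.1 ± 37.6 (SD, n = 7) and at least 1 control goat at 0. SOCS3, an inhibitor of cytokine receptor signalling (0.77), the transcription factors ETS2 (0.79) and MYC (0.87), and BTG1, an inhibitor of proliferation (0.96), also rose. FOSB, a further AP-1 subunit of the FOS family, was low and did not pass, at 71.0 ± 45.0 (SD, n = 4) against 18.2 ± 13.1 (SD, n = 7; exact permutation test, p = 0.0576).

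IER2 went in the opposite direction from the rest of the list. It fell from 1718 ± 495 (SD, n = 7) to 1156 ± 138 (SD, n = 4), which is -0.53 in log2 units (p = 0.0455 in the exact permutation test). The MAP kinase pathway acts upstream of FOS and includes the kinases that DUSP1 dephosphorylates. Of 57 genes of this pathway, 3 were in the 30 min table. HRAS (-0.98), MAPK12 (-0.90) and ELK4 (-1.16) had a lower mean and none passed the exact permutation test (p from 0.112 to 0.191).

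**Figure D3:**
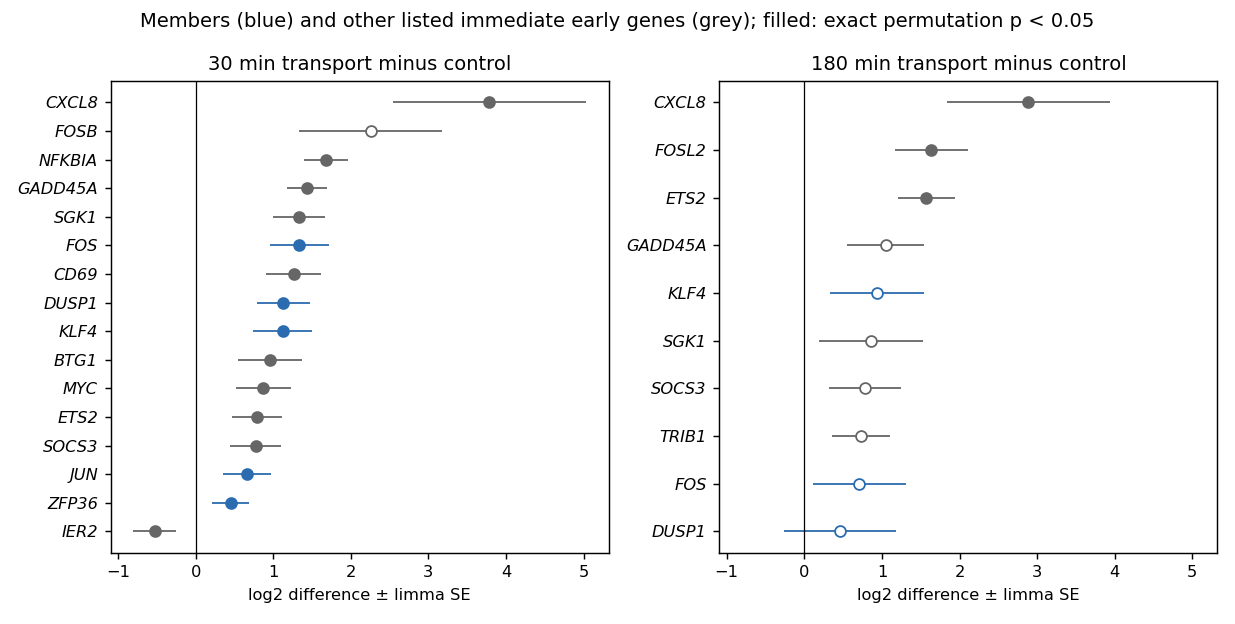
Log2 difference from control with its limma standard error for the members and for every listed gene of the other immediate early list, at 30 min (n = 4 against 7) and 180 min (n = 7 against 7). Filled points passed the exact permutation test at an unadjusted p below 0.05 and blue points are the members. At 30 min IER2 is the gene to the left of 0, and at 180 min every point lies to the right of 0 with the 3 members unfilled.

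Over the 11 goats and 197 named candidate genes whose normalized counts averaged 50 or more, log2 counts were taken relative to each gene's control mean. Genes with a similar difference from control therefore lie close together. The genes closest to each member were those with the smallest mean absolute difference of these values. For FOS these were ICAM1, a leukocyte adhesion receptor (0.29), GLUL, glutamine synthetase (0.29), and SRGN, the granule proteoglycan serglycin (0.30). For KLF4 they were FOS (0.33), GLUL (0.35) and SGK1 (0.36), so that 1 of the members was the nearest gene to another. DUSP1 was closest to BASP1 (0.31), SRGN (0.34) and TSC22D3, a gene known to be induced by glucocorticoids (0.37). JUN was closest to B4GALT1 (0.18), RASGEF1B (0.20) and SRGN (0.21), and ZFP36 to FLOT2 (0.12), FGL2 (0.13) and OSBPL2 (0.14). Since genes with a small spread lie close to many others, the distances of JUN and ZFP36 are not comparable with those of FOS.

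Markers of blood cell types were read beside these results. Of 11 B cell markers 5 were listed in the 30 min table, all with a lower mean and 1 of them passing the exact permutation test. Over all 430 listed genes 29.5% had a higher mean and 20.7% were lower by that test, so that the share passing was close to the background. The sum of the B cell markers ranged from 8570 to 12061 after transport and from 8975 to 28768 in control. Control goats 8 and 9 had the highest B cell sums, at 28768 and 25792, and goat 8 had the lowest JUN, DUSP1 and ZFP36 of the control goats, while goat 9 had the highest DUSP1 (1306) and lay inside the control range for the other 4 genes. Of 9 natural killer cell markers 1 was listed, which was lower, and none of the monocyte, T cell, eosinophil, red cell or platelet markers was listed. None of these listed markers was at 0 in any goat. The part of cell type shares in the differences of the 5 genes was not tested.

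The comparison of 180 min transport with control addressed the response to a longer journey. FOS, KLF4 and DUSP1 had higher means than control, as 59.4% of the 1247 listed genes did, but none passed the test. The values of the transported goats spread on both sides of the control range. FOS had normalized counts of 76.5, 227, 329, 789, 2026, 1186 and 412 in goats 10, 11, 13, 14, 15, 16 and 17. In control it ranged from 175 to 462 with a median of 270. Goats 14, 15 and 16 lay above every control goat, goat 10 lay below every control goat, and goats 11, 13 and 17 lay within the control range.

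FOS averaged 721 ± 687 (SD, n = 7) after 180 min and 299 ± 108 (SD, n = 7) in control, a log2 difference of 0.71 (limma standard error 0.60; exact two-sided permutation test, p = 0.288). Without goat 10 the log2 difference was 1.14 (exact permutation test, p = 0.0443), and without goat 15 it was 0.35 (p = 0.552). The call for FOS thus changed when goat 10 was left out, and its size fell when goat 15 was.

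KLF4 had normalized counts of 40.9, 227, 130, 395, 987, 749 and 170 in goats 10, 11, 13, 14, 15, 16 and 17, and ranged from 79.9 to 223 with a median of 143 in control. Goats 14, 15 and 16 were clearly above every control goat, goat 11 was just above the highest control goat, and goat 10 was below every control goat. The mean was 386 ± 354 (SD, n = 7) after 180 min and 141 ± 58.2 (SD, n = 7) in control, a log2 difference of 0.94 (limma standard error 0.60; exact two-sided permutation test, p = 0.171). Without goat 10 the log2 difference was 1.37 (exact permutation test, p = 0.0216), and without goat 15 it was 0.61 (p = 0.332).

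DUSP1 had normalized counts of 121, 973, 1022, 2439, 8167, 4219 and 962 in goats 10, 11, 13, 14, 15, 16 and 17, and ranged from 481 to 1417 with a median of 1202 in control. Goats 14, 15 and 16 lay above every control goat, goats 11, 13 and 17 lay below the control median, and goat 10 lay below every control goat. The mean was 2558 ± 2816 (SD, n = 7) after 180 min and 1073 ± 357 (SD, n = 7) in control, a log2 difference of 0.45 (limma standard error 0.72; exact two-sided permutation test, p = 0.578). Without goat 15 the log2 difference was 0.028 (exact permutation test, p = 0.972), and without goat 10 it was 1.04 (p = 0.0868).

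**Figure D4:**
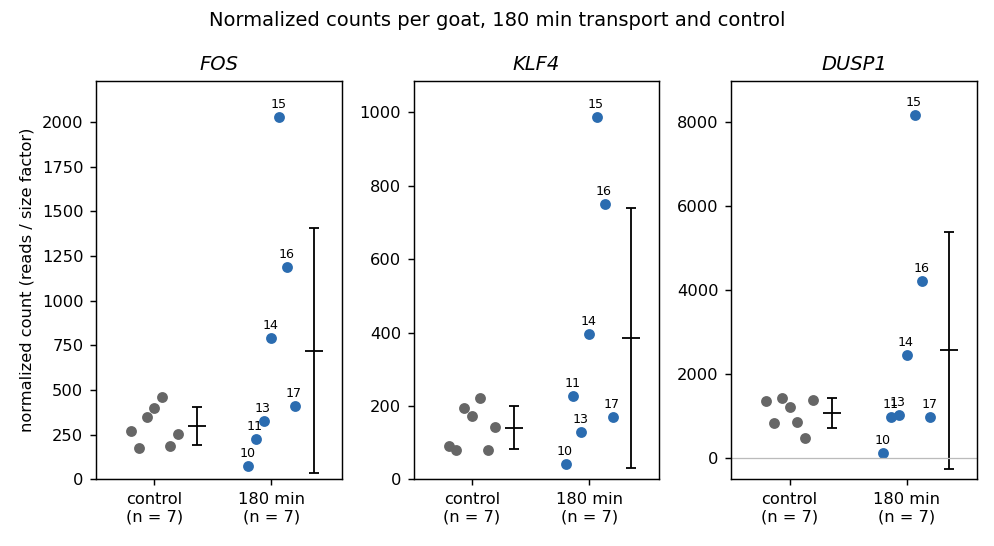
Normalized read counts (linear axes, 1 panel per gene) of FOS, KLF4 and DUSP1 in each control goat (n = 7) and each goat transported for 180 min (n = 7), with 1 point per goat, goat numbers beside the transported goats, and the group mean and SD as a bar. In each panel goat 15 is at the top, followed by goats 16 and 14, and goat 10 is below every control goat.

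None of the 3 genes passed the permutation test after 180 min, where 38.3% of the 1247 listed genes were higher at an unadjusted p below 0.05. No member's groups were free of overlap, against 1.84% of the listed genes that were higher without overlap. The adjusted p-values of FOS, KLF4 and DUSP1 in the permutation test were 0.302, 0.194 and 0.582, and 44.6% of the listed genes passed that adjustment. Here too the adjustment ran over genes already chosen by p-value on the same goats. Count models fitted with the deposited size factors gave larger differences. These models compare mean counts, whereas the values above are differences of mean log2 counts, so that the measures are unlike. In edgeR FOS (1.27) and KLF4 (1.45) were called higher at an unadjusted p below 0.05, as were 52.0% of the listed genes, while DUSP1 (1.25) was not. DESeq2 with the deposited size factors called all 3 genes, where it called 1203 of the 1247 listed genes, 721 of them higher. Neither edgeR with TMM (0.75 for FOS, 0.92 for KLF4 and 0.76 for DUSP1) nor DESeq2 with its own size factors (0.83, 1.01 and 0.83) called any of the 3.

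The same goats led all 3 genes after 180 min. From the top the order was goat 15, goat 16 and goat 14 in each gene, and goat 10 was lowest in each. Goat 15 alone held 40.2% of the group's summed normalized count for FOS, 36.6% for KLF4 and 45.6% for DUSP1. The other immediate early genes listed at 180 min had a summed count of 24360 in goat 15, 17144 in goat 16 and 11487 in goat 14, against 3297 to 5709 in the control goats. The sum in goat 10 was 4528, within the control range.

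The spread among transported goats, as the SD of log2 counts, was 1.58 for FOS, 1.57 for KLF4 and 1.95 for DUSP1 after 180 min, and 0.53, 0.62 and 0.57 in control. The ratio of these SDs was 2.95 for FOS, 2.52 for KLF4 and 3.41 for DUSP1, while the median over the 847 listed genes whose normalized counts averaged 50 or more was 1.27. A ratio at least as large was found in 7.91% of those genes for FOS, 11.6% for KLF4 and 4.84% for DUSP1. Without goat 10 the ratios were 2.24, 1.90 and 2.28, the median over the listed genes was 0.89, and a ratio at least as large was found in 7.08%, 10.9% and 6.61% of them. After 30 min the ratio was 1.75 for FOS, 1.24 for KLF4 and 0.79 for DUSP1, with 0.73 for JUN and 1.72 for ZFP36 and a median of 0.72 over 253 listed genes. The ratios of all 3 genes were thus higher at 180 min than at 30 min, as was the median over the listed genes, and these differences in spread were not tested.

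The position of goat 10 in the 3 members was set beside its position in other listed genes with a higher mean after 180 min. Among the 584 listed genes with a higher mean after 180 min and an average normalized count of 50 or more, goat 10 had the highest value in 54.8% and the lowest in 7.02%. Goat 15 had the highest value in 27.1% of them. FOS, KLF4 and DUSP1 were thus among the smaller share of these 584 genes in which goat 10 was the lowest goat. The choice of genes with a higher mean rests in part on goat 10 itself, so these shares do not describe the whole table.

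Marker genes of other cell types moved with the 180 min group. Of 21 neutrophil markers 6 were listed, all higher and 5 of them passing the exact permutation test. Over all 1247 listed genes 59.4% had a higher mean and 38.3% were higher by that test. The sum of the neutrophil markers ranged from 60955 to 185915 after transport and from 18910 to 78189 in control. The neutrophil sum was highest in goat 10, where the members were lowest. Of 10 monocyte markers 3 were listed, CD14, CD163 and CSF1R, all higher and all passing, with sums from 9216 to 31348 after transport and from 3052 to 10453 in control. The monocyte sum was highest in goats 15 and 16, at 31348 and 24946, where the members were highest, and it was 12791 in goat 10.

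Of 16 T cell markers 6 were listed, all lower and 5 of them passing, where 25.7% of all listed genes were lower by the exact permutation test. The T cell sums ran from 4449 to 9019 after transport and from 8064 to 15344 in control. Of the B cell markers 1 of 11 was listed and lower, and of the natural killer cell markers 1 of 9 was listed and higher. Of 8 platelet markers GP1BB was listed, with a count of 20030 in goat 10 and 504 to 3032 in the other transported goats. No eosinophil or red cell marker was listed. The neutrophil marker MGAM was at 0 in at least 1 control goat, and the other listed markers had reads in every goat. The part of these cell types in the levels of FOS, KLF4 and DUSP1 was not tested.

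Of the 53 other immediate early genes 7 were in the 180 min table, all with a higher mean, and 3 of them rose by the exact permutation test. Over all 1247 listed genes 59.4% had a higher mean and 38.3% were higher by that test, so that the share of the list that passed the test was close to the background. Their median log2 difference was 1.05, against 0.68 over all listed genes. ETS2, an ETS family transcription factor, rose from 824 ± 274 to 2717 ± 1652 (SD, n = 7 each), a difference of 1.57 in log2 units (p = 0.00117 in the exact permutation test). FOSL2, an AP-1 subunit related to FOS, rose from 313 ± 149 to 1003 ± 557 (1.63 in log2 units, p = 0.00758 in the exact permutation test). CXCL8 rose by 2.89 in log2 units (p = 0.0216 in the exact permutation test). The means of GADD45A (1.05), SGK1 (0.86), SOCS3 (0.78) and TRIB1 (0.73) were higher but did not pass, with p from 0.0624 to 0.254 in the exact permutation test.

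Of the 57 genes of the MAP kinase pathway 9 were in the 180 min table, of which 6 rose and 2 fell by the exact permutation test, where 38.3% of all listed genes rose. Their summed count was highest in goat 10, at 33538, the goat with the lowest FOS, KLF4 and DUSP1, and was 14518 to 21088 in the other transported goats and 9333 to 15227 in control. MAP3K11, a kinase upstream of JNK that did not pass (0.72, p = 0.127 in the exact permutation test), made up 14042 of the sum in goat 10, and the other 8 genes summed to 19496 there and to 18555 in goat 15. MAPK14, the p38 alpha kinase that DUSP1 dephosphorylates, rose from 970 ± 201 to 2658 ± 1611 (SD, n = 7 each; log2 difference 1.28, exact permutation test, p = 0.00175). MAPK13, the p38 delta kinase, rose by 1.26, and MAPKAPK2, a kinase downstream of p38, rose by 0.69. In the exact permutation test DUSP16, a phosphatase of JNK and p38 with at least 1 control goat at 0, rose by 2.39 (p = 0.0361) and RPS6KA1, a kinase downstream of ERK, rose by 0.49 (p = 0.0361). DUSP10 (-1.44, p = 0.0111) and DUSP7 (-0.57, p = 0.0175), which encode other MAP kinase phosphatases, fell in the same exact permutation test, as did 25.7% of the listed genes. The phosphatase genes related to DUSP1 thus moved in both directions, and DUSP10 was low, at 11.6 ± 6.40 (SD, n = 7) against 27.5 ± 11.5 (SD, n = 7).

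Over the 14 goats of the 180 min table and 666 candidate genes, FOS and KLF4 were each the gene nearest to the other, with a mean absolute log2 difference of 0.26. SAMSN1 (0.29) and SGK1 (0.32) were next to FOS, and STEAP4 (0.40) and PTAFR, the receptor of platelet activating factor (0.40), were next to KLF4. DUSP1 was closest to CEBPB, a myeloid transcription factor (0.32), then to PTGER2, a prostaglandin E2 receptor (0.41), and PTAFR (0.42). Both tables hold the same 7 control goats, and their candidate genes differ, so that distances are not comparable between them.

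The 2 comparisons share their control goats, so that the 30 min and 180 min groups were also compared directly on counts scaled by effective library size. FOS averaged 747 ± 682 (SD, n = 7) after 180 min and 869 ± 554 (SD, n = 4) after 30 min, a log2 difference of -0.63 (95% confidence interval -2.29 to 1.04, limma; exact two-sided permutation test, p = 0.482). KLF4 averaged 400 ± 352 and 328 ± 131, a log2 difference of -0.19 (-1.82 to 1.45; p = 0.824 in the exact permutation test). DUSP1 averaged 2640 ± 2806 and 2448 ± 647, a log2 difference of -0.67 (-2.62 to 1.28; p = 0.558 in the exact permutation test).

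For KLF4 and DUSP1 the mean count was thus higher after 180 min while the difference of mean logarithms was negative, and for FOS both were lower. The groups were not told apart for any of the 3 genes. Without goat 10 the log2 difference was -0.20 for FOS, 0.24 for KLF4 and -0.091 for DUSP1 (exact permutation test, p = 0.757, 0.695 and 0.900). For DUSP1, 2 goats of the 180 min group were above every 30 min goat and 4 were below every one, and for FOS these numbers were 1 and 4. Of the 120 genes shared between the tables, 4.17% had an unadjusted p below 0.05 in this direct comparison. The sign for KLF4 also turned when goat 21 was left out, to 0.0049.

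**Figure D5:**
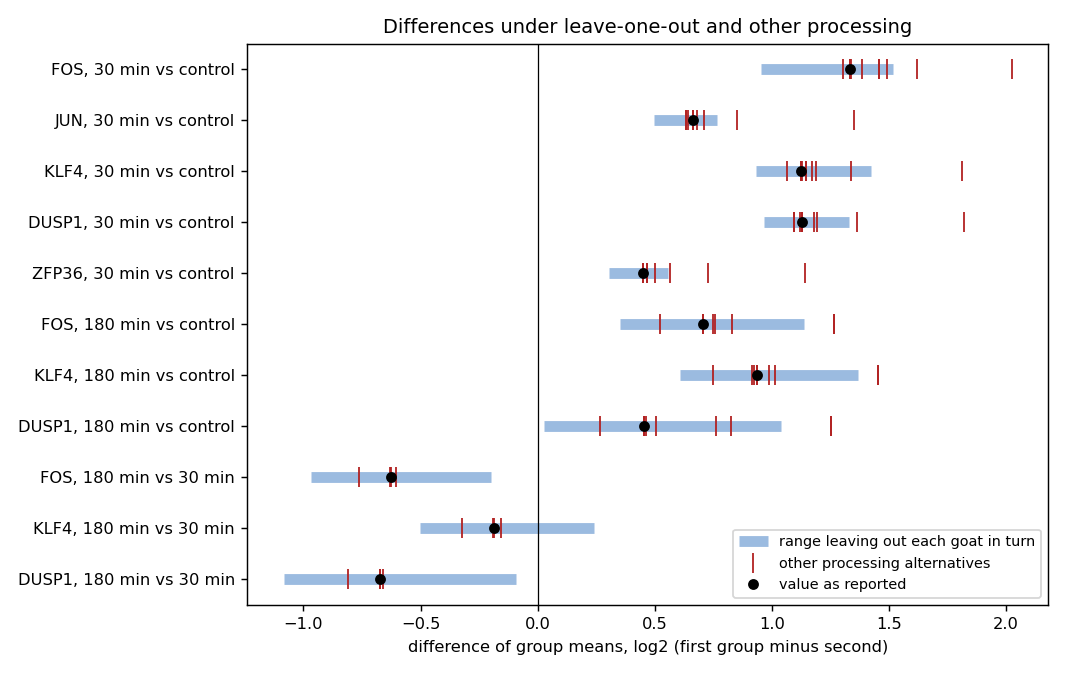
Log2 difference of group means for each member and comparison (horizontal axis), as the value reported (black point), the range with each goat left out in turn (blue bar) and the value under each other way of processing (red tick). The 30 min differences lie to the right of 0 throughout, the 180 min differences have wider bars, and the bar of KLF4 in the direct comparison crosses 0.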

How the data were processed

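Whole blood RNA was depleted of globin mRNA, enriched for poly-A RNA and made into libraries with a kit that does not mark strand. The authors trimmed reads with fastp and aligned them with HISAT2, and the counting tool and genome build are not given in the sources used here. For each comparison the deposited table holds per goat raw read counts, normalized counts (a signal: counts divided by size factors made by the authors) and FPKM, which the authors scaled by gene length and library size. The deposited tables also hold the authors' fold changes and p-values, of which only the unadjusted p-value was read, to see which genes were listed. The other columns of that kind were not used.

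Tests were run on log2(normalized count + 1). Group means of each member were compared by exact permutation over goats (two-sided), beside limma 3.58.1 fitted to the whole table, which gave the standard errors. Adjustment was by Benjamini-Hochberg over the listed genes of a table, which had been chosen by p-value on the same goats. Adjusted p-values are therefore not false discovery rates over all genes. The tables hold listed genes only and no full count matrix, so edgeR 4.0.16 and DESeq2 1.42.0 on the raw counts served as alternatives. The smallest possible p was 0.00303 for 4 against 7 goats and 0.000583 for 7 against 7. Scripts were tested on simulated data. Named genes were the members, the 3 nearest genes of each, and the listed genes of the immediate early, MAP kinase and cell marker lists. Some listed genes of these lists are not reported here. Members and lists were chosen with earlier results of these data known. No sequence is shown, since none was in the files used here.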

Additional observations from a re-analysis of the deposited data

How the results depend on the processing

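FOS, KLF4 and DUSP1 after 30 min kept their direction and stayed past the threshold under 2 other pseudocounts, 2 other scalings, an exact Mann-Whitney test, limma, edgeR and DESeq2, with log2 differences from 1.31 to 2.03, 1.07 to 1.81 and 1.09 to 1.82. With each goat left out in turn they ranged from 0.96 to 1.52, 0.93 to 1.42 and 0.97 to 1.33. With the deposited size factors DESeq2 called 392 of the 430 listed genes and edgeR 304. Passing these models therefore repeats part of the choice by which the genes were listed, and is no independent support. JUN did not pass with limma (0.66) or edgeR with TMM (0.68), and ranged from 0.50 to 0.76 with a goat left out. ZFP36 did not pass with limma (0.45), and ranged from 0.30 to 0.55 with a goat left out, without passing when goat 21 or 22 was missing. After 180 min FOS passed with the deposited size factors in edgeR (1.27) and DESeq2 (1.27), KLF4 in edgeR (1.45) and DESeq2 (1.45), and DUSP1 in DESeq2 (1.25). None of the 3 passed in edgeR with TMM or in DESeq2 with its own size factors. With a goat left out they ranged from 0.35 to 1.14, 0.61 to 1.37 and 0.028 to 1.04. In the direct comparison of 180 min with 30 min, FOS ranged from -0.97 to -0.20, KLF4 from -0.50 to 0.24 and DUSP1 from -1.08 to -0.09 with a goat left out. The ratios of FOS to KLF4 (-0.031 to 0.45), FOS to DUSP1 (-0.38 to 0.42) and KLF4 to DUSP1 (-0.35 to 0.36) at 30 min changed sign with a goat left out.

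Over the whole 30 min table limma called 198 genes (93 higher, 105 lower), edgeR with the deposited size factors 304 and DESeq2 with them 392, and 105 to 221 were called with a goat left out, with 105 without goat 24 and 109 without goat 21. Over the 180 min table limma called 778 genes (459 higher, 319 lower) and DESeq2 with the deposited size factors 1203, with 625 to 762 when a goat was left out. The split of higher and lower calls moved with the scaling and with the test. With limma it was 126 and 9 at 30 min and 311 and 426 at 180 min after median centring. With the deposited size factors, as in the main analysis, it was 111 and 193 in edgeR and 123 and 269 in DESeq2 at 30 min, and 648 and 370 in edgeR and 721 and 482 in DESeq2 at 180 min. At 180 min it was 245 and 480 in edgeR with TMM and 296 and 501 in DESeq2 with its own size factors. At 30 min these were 97 and 142, and 126 and 114. TMM and DESeq2's own factors were estimated from the listed genes alone. The limma results for members, the ratios between members and the spread with a goat left out were added after the data had been seen. For these changes the cause was not tested. No paired analysis was possible because no goat number occurs in more than 1 group. The lowest read count of a member in any goat was 23, and the part of counting error in the spread between goats was not tested.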
